A study of Mus musculus with 6 samples.

Results

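DNA replication licensing and fork genes were examined in the rostral telencephalon of mouse embryos with and without deletion of floxed Dicer, the enzyme that cuts miRNA precursors into mature miRNAs. The 40 genes were taken by name from the 55471 gene identifiers of the count tables, by their known part in replication and with earlier results of these data known, and each name matched 1 identifier. All 40 entered the test of Rx-Dicer against control, and none was lost to a filter on low values, since the smallest raw count of any of these genes in a library was 515. The labels place 3 libraries in the control genotype and 3 in the Rx-Dicer genotype, both dissected from the rostral end of the telencephalic primordium at E11.5. Controls carried 2 floxed copies of Dicer (Dicer F/F, written WT in the labels) and no Cre. Rx-Dicer embryos carried the same floxed copies together with Cre under the regulatory sequences of Rx, a gene of the early forebrain and eye field (RxCre-Dicer F/F). The Cre line was kept on the CD1 background and the floxed allele on C57BL/6. Cells outside the Rx lineage, such as those of blood and vessels, keep Dicer in this genotype. Whether 1 embryo or a pool went into each library is not in the labels, so p-values rest only on the spread between these libraries.

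Before a cell copies its DNA, the origin recognition complex (ORC) binds origins and, with Cdc6 and Cdt1, loads the Mcm2 to Mcm7 helicase on them in G1, a step called licensing. Geminin (Gmnn) blocks Cdt1 once S phase has begun, so that origins fire no more than once. At firing, Cdc45 and the GINS complex join the helicase to form the active CMG helicase, polymerase alpha with primase starts each strand, the RFC complex loads the Pcna clamp, and polymerases delta and epsilon extend the DNA. At E11.5 most cells of the telencephalic wall are cycling progenitors, and many of these genes are transcribed mainly in late G1 and S phase under E2F factors.

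None of the 40 genes was called different between genotypes by DESeq2, where a call needed an adjusted p under 0.05 and a log2 fold change beyond 0.32 in either direction, the limits the study used. The same test called 502 of 17128 genes tested, or 2.93%, of which 300 were higher and 202 lower in Rx-Dicer. An unadjusted p under 0.05 was found for 1 of the 40, Rfc2, against 13.1% of all genes tested. The edgeR quasi-likelihood test also called none of the 40, with an unadjusted p under 0.05 for 1 of them, again Rfc2, and it called 8 of 17954 genes, or 0.0446%. In the 22 alternative fits the count of replication genes called was 0 throughout. The median log2 fold change of the 40 genes, Rx-Dicer over control, was -0.05, with 13 above and 27 below 0, beside a median of -0.00087 over all genes tested. The fold changes spanned -0.28 for Rfc2 to 0.18 for Pola1, with standard errors of 0.12 to 0.16. The median was -0.12 without control 1 and turned to 0.03 without control 2, and it was below 0 without any other single library. In a tissue sample, fewer cells in S phase and less RNA per cell cannot be told apart.

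**Figure D1:**
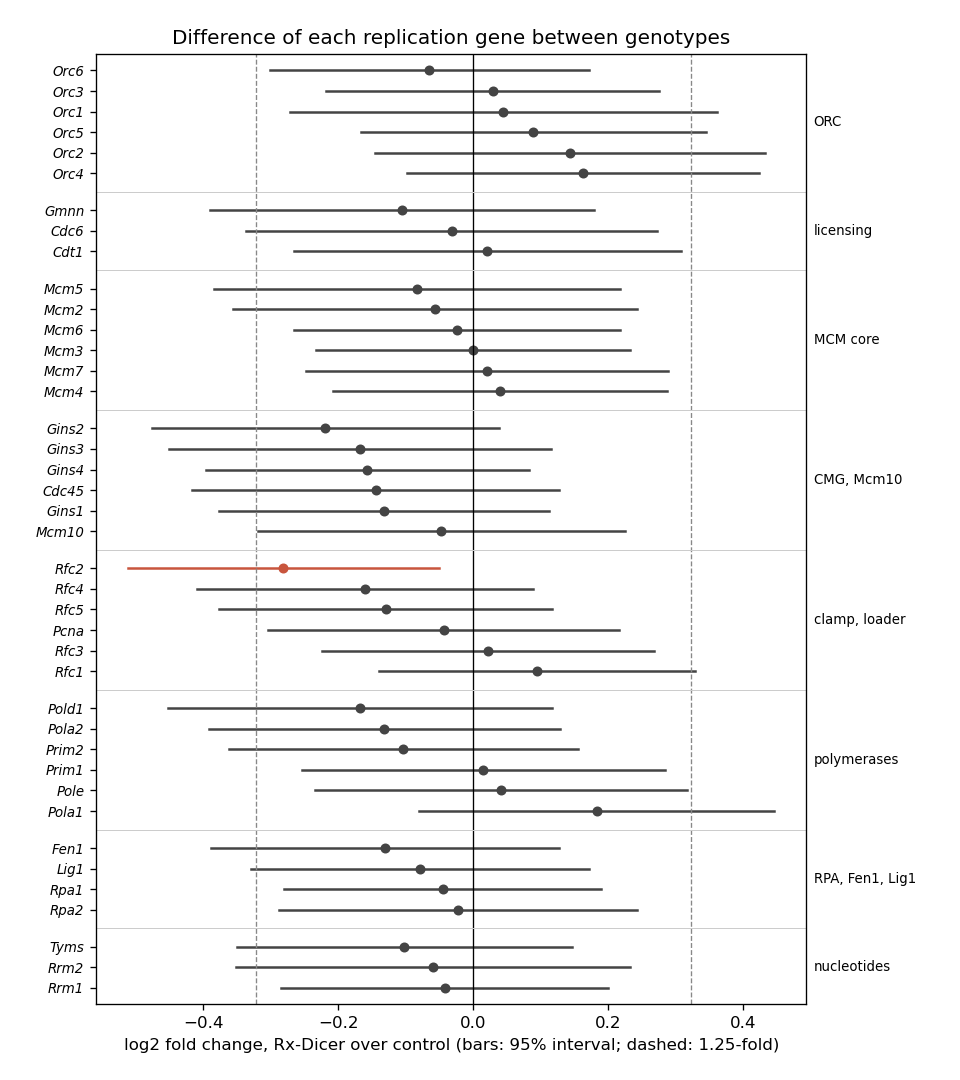
The x axis gives the log2 fold change (Rx-Dicer over control, n = 3 and 3) of each of the 40 genes as a point with its 95% interval as a bar, by role, with log2 values of -0.32 and 0.32 marked by dashed lines. The interval of Rfc2, drawn in colour, runs from -0.51 to -0.05 and is the one that does not cross 0.

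The intervals show, for each gene taken alone, how large a change these libraries could have missed. They rest on the spread between 3 libraries per genotype, use normal limits and may be too narrow. The 95% interval of the fold change lay within 0.32 of 0 on the log2 scale for 15 of the 40 genes and within 1.5-fold for all 40. A fall of 0.32 or more on that scale was outside the interval of 21 genes, and a rise of that size was outside the interval of 34. The lowest bound of any gene was -0.51 (Rfc2) and the highest 0.45 (Pola1).

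Libraries of the same genotype differed in these genes at least as much as the genotypes did. On the log2 scale, the median gene of the 40 lay 0.12 below its own mean over the 6 libraries in control 1, and 0.16 above it in control 2 and 0.04 above it in control 3. In Rx-Dicer the same value was 0.07 below in library 1, 0.06 below in library 2 and 0.09 above in library 3. Control 2 held the highest value of 22 genes and Rx-Dicer 3 that of 14, whereas control 1 held the lowest value of 16 genes and Rx-Dicer 1 that of 12. The genotypes overlapped for 39 of the 40 genes. Over all genes tested, Rx-Dicer values lay all below control in 10.7% and all above in 8.55%, so most genes overlapped there as well.

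Markers of some other cells moved with these library differences. Normalised counts are raw counts divided by the DESeq2 size factor of the library. Summed normalised counts of 7 erythroid genes, embryonic globins among them, were 988412 in control 2 and 986823 in Rx-Dicer 3, against 353767 to 465234 in the other 4 libraries, so the libraries highest in replication genes were those highest in these markers. New neuron markers (7 genes, Tubb3 and Dcx among them) summed to 86426 in control 1, the library lowest in replication genes, and to 56005 to 74813 in the other 5. Without control 2 and Rx-Dicer 3 the median fold change of the 40 genes was -0.04 with no gene called, with the erythroid sum as a covariate it was -0.03, and with the neuron sum as a covariate -0.16, again with none called. Markers of basal progenitors summed to 11474 to 17127 in control and 8362 to 9851 in Rx-Dicer, with Eomes and Insm1 called lower, and those of microglia to 1001 to 1150 in control and 1125 to 3748 in Rx-Dicer, with Csf1r and Cx3cr1 called higher. Every marker of the telencephalic neuroepithelium was detected in each library, with Six3 called higher and Pax6 lower in Rx-Dicer. The sum of these markers was 84589 to 96128 in control, highest in control 2, and 70636 to 87196 in Rx-Dicer, so the genotypes overlapped. Sums of endothelial, head mesenchyme and surface ectoderm markers overlapped between genotypes. The surface ectoderm sum was highest in control 1 (2510) and lowest in control 2 (530), opposite to the replication genes. The head mesenchyme sum was also lowest in control 2 (33719). The part of these cells in the levels of the replication genes was not tested beyond the fits just given.

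**Figure D2:**
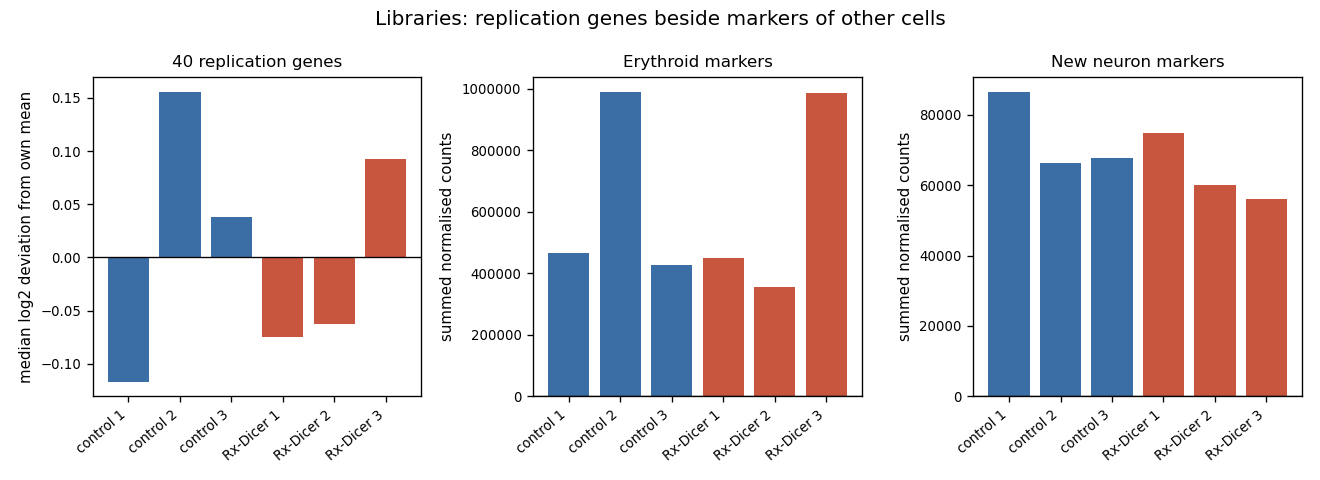
The left panel gives, for each library, the median over the 40 genes of the log2 deviation of a gene from its own mean, and the other panels the summed normalised counts of 7 erythroid and 7 new neuron markers, with controls in blue and Rx-Dicer in red. Control 2 and Rx-Dicer 3 stand highest in the left and middle panels, and control 1 lowest on the left and highest on the right.

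Total counts on genes ranged from 34471501 to 48373468 per library, and those of the genotypes overlapped. The targeted gene, Dicer1 (chr12:104687742-104751952), had 6355, 7070.2 and 6270.4 normalised counts in control and 4777, 7002 and 4644 in Rx-Dicer, with libraries in the order of their replicate numbers here and for all genes that follow. Its log2 fold change was -0.26 ± 0.17 (SE, adjusted p = 0.567), and Rx-Dicer 2 lay at the control level. Without Rx-Dicer 2 it was called lower, at -0.47. The gene count includes exons outside the floxed segment, so it is no check of the deletion.

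Levels were compared between genes per kilobase of exon, over the union of annotated exons of each gene. At the same count a gene with more annotated exon has a lower value, whichever of its transcripts are expressed. In control libraries, Pcna, the sliding clamp, stood highest with 9625 ± 1014 normalised counts per kilobase (mean ± SD, n = 3), followed by Rrm2, the small subunit of ribonucleotide reductase, with 7249.9 ± 727 and by Mcm7 with 4344 ± 542. The next 4 places were held by other subunits of the MCM helicase, Mcm3, Mcm5, Mcm6 and Mcm4, from 4016 down to 2795 per kilobase, and Mcm7 and Mcm3, Mcm3 and Mcm5, and Mcm6 and Mcm4 differed by less than the larger SD of each pair. The lowest levels were those of 3 ORC subunits, Orc5 with 182 ± 7.44, Orc1 with 215 ± 32.3 and Orc4 with 246 ± 21.9 per kilobase. Between control libraries, a gene varied with a median coefficient of variation of 9.64% over the 40 genes.

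**Figure D3:**
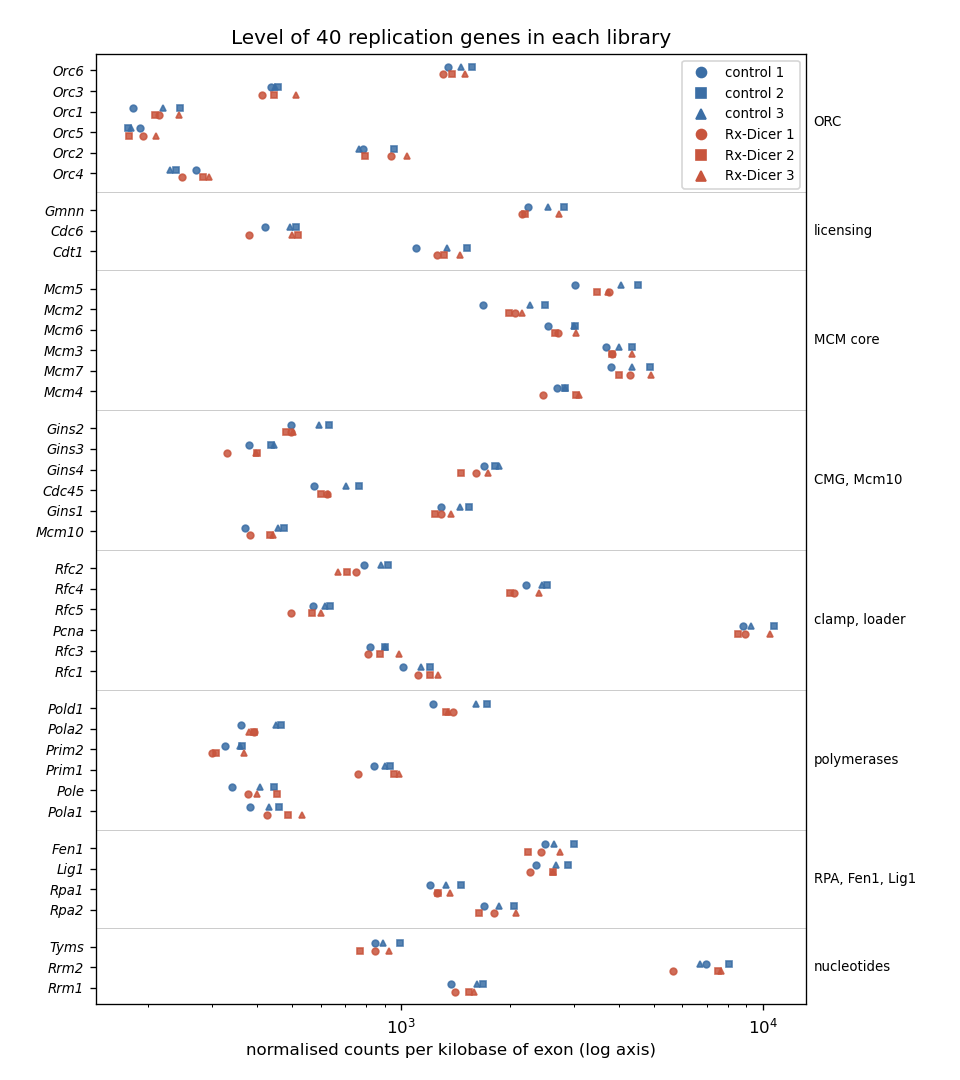
Each symbol is the level of a gene in 1 library, in normalised counts per kilobase of exon on a log axis, with controls in blue and Rx-Dicer in red and the replicate number as the shape. Pcna and Rrm2 stand apart at the right and Orc5, Orc1 and Orc4 at the left, and blue and red overlap in every row but that of Rfc2.

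As many of the 40 genes are transcribed in late G1 and S phase, promoters were searched for E2F words. These were TTTCCCGC and TTTGGCGC, the classical E2F site in its common forms, on both strands. RefSeq promoters (GRCm38.p6, 250 bases before to 50 after the gene start) were found for 32 of the 40, and at least 1 of these words stood in 11 of the 32, or 34.4%, against 1.80% of all 27025 genes with a promoter and 3.31% of the 11769 that were tested here. The 11 were Cdc6, Cdt1, Gins3, Mcm3, Mcm5, Mcm6, Mcm7, Orc3, Pola1, Pold1 and Rfc3, and Mcm3 and Mcm6 held 2 words each. CCAAT, the NF-Y word, stood in 21 of the 32 (65.6%) against 41.1% of all genes and 43.0% of tested genes, and TTTGAA, a word of promoters of G2 and mitosis genes, in 4 (12.5%) against 20.2% and 14.4%. These are matches of letters and were not tested as sites. Of the 11 windows, 4 hold no annotated exon and are printed here, each 5′ to 3′ on the strand of its gene with the word, or its reverse complement, in capitals. They lie at chr11:98907987-98908046 on the plus strand for Cdc6, chr8:75109334-75109393 on the plus strand for Mcm5, chr1:128359719-128359841 on the minus strand for Mcm6 and chrX:93632260-93632319 on the minus strand for Pola1.
Cdc6: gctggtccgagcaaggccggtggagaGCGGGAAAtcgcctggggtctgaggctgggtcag
Mcm5: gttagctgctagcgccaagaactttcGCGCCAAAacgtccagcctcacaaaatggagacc
Mcm6: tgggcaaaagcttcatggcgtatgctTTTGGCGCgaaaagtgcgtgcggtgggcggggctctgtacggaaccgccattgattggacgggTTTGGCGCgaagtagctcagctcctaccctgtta
Pola1: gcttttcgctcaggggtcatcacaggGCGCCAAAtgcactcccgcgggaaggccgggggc
The 11 genes with an E2F word had log2 fold changes of -0.17 to 0.18 between genotypes, with a median of -0.00070. The 21 without it had -0.16 to 0.16, with a median of -0.05. The 8 genes without a promoter, Gins1, Gins2, Gins4, Gmnn, Mcm4, Pole, Prim2 and Rfc2, are in neither group. They include Rfc2 (-0.28) and Gins2 (-0.22), the lowest of the 40.

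The ORC, which marks origins, had 5 of its 6 subunits above 0 and a median log2 fold change of 0.07, with none called. Orc4 had 2018, 1776 and 1707 normalised counts in control and 1846, 2111 and 2199.8 in Rx-Dicer. Its log2 fold change was 0.16 ± 0.13 (SE, adjusted p = 0.72), and the genotypes overlapped because control 1 stood above Rx-Dicer 1. Orc2 had 3024, 3689 and 2951 normalised counts in control and 3608, 3069 and 3996 in Rx-Dicer, a log2 fold change of 0.14 ± 0.15 (SE, adjusted p = 0.811). Control 2 was higher than 2 of the 3 Rx-Dicer libraries. Orc5 (1171, 1085 and 1102 normalised counts in control and 1188, 1090.2 and 1293 in Rx-Dicer) and Orc1 (629, 852 and 763 normalised counts in control and 746, 723 and 847 in Rx-Dicer) gave log2 fold changes of 0.09 ± 0.13 and 0.04 ± 0.16, and both overlapped. Orc3 and Orc6 gave 0.03 and -0.07. Under a correction for gene length and GC content, which moved the median of all genes to -0.05, Orc4, Orc5 and Orc1 lay at -0.06, -0.09 and -0.02, so their direction turned under this correction, with Orc1 still above the median of all genes. TMM and total-count size factors kept all 3 above 0, and no ORC subunit was called in any of these fits.

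Of the licensing factors, Gmnn, the inhibitor of Cdt1, had 3291, 4138 and 3738 normalised counts in control and 3166, 3215 and 3998 in Rx-Dicer. Its log2 fold change was -0.11 ± 0.15 (SE, adjusted p = 0.883). Cdc6, the ATPase that brings the helicase to ORC, had 2196, 2679 and 2580.5 normalised counts in control and 1981, 2712 and 2602 in Rx-Dicer. Its log2 fold change was -0.03 ± 0.16 (SE, adjusted p = 0.981). In both genes Rx-Dicer 1 was the lowest library, and the values of the other libraries overlapped. Cdt1, the helicase loader that Gmnn inhibits, lay at 0.02 ± 0.15. The ratio of Cdt1 to Gmnn per kilobase was 0.518 ± 0.0257 in control and 0.571 ± 0.034 in Rx-Dicer (mean ± SD, n = 3), with overlapping libraries.

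The MCM helicase core, the motor that unwinds the fork, was the group closest to 0, with 2 subunits above and 4 below it and a median log2 fold change of -0.01. Mcm5 had 12123, 18077 and 16223 normalised counts in control and 15043, 13905 and 14889.8 in Rx-Dicer. The log2 fold change was -0.08 ± 0.15 (SE, adjusted p = 0.928). Mcm2 had 11744, 17415 and 15772 normalised counts in control and 14387, 13797 and 15006 in Rx-Dicer. It gave a log2 fold change of -0.06 ± 0.15 (SE, adjusted p = 0.958). In both, the control libraries spread more widely than the Rx-Dicer libraries, and all 3 Rx-Dicer values lay between control 1 and control 3. Mcm7 had 16839, 21636 and 19198 normalised counts in control and 18976, 17741 and 21772 in Rx-Dicer, a log2 fold change of 0.02 ± 0.14 (SE, adjusted p = 0.987). The remaining subunits gave 0.04 (Mcm4), -0.02 (Mcm6) and -0.00070 (Mcm3). The 6 subunits join in equal number in the helicase, but their counts per kilobase were not equal. These values depend on the annotated exon length. Mcm2 and Mcm5 had control means of 14977 and 15474 normalised counts, over 6956 and 3993 bases of exon. Mcm7 made up 21.7% ± 0.479 of their sum in control and 22.2% ± 1.02 in Rx-Dicer, and Mcm2 10.7% ± 0.89 and 10.5% ± 0.345 (mean ± SD, n = 3). No subunit's share kept the genotypes apart.

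All 6 genes of the helicase activation group, Cdc45, the 4 GINS subunits and Mcm10, lay below 0, with a median log2 fold change of -0.15 and none called. Their fold changes ran from -0.22 for Gins2 to -0.05 for Mcm10. Gins2 had 2035, 2585 and 2428 normalised counts in control and 2029, 1972 and 2054 in Rx-Dicer. The log2 fold change was -0.22 ± 0.13 (SE, adjusted p = 0.515). Its Rx-Dicer values lay close together, below control 2 and control 3 and on both sides of control 1. Gins4 had 2284, 2445 and 2511 normalised counts in control and 2175, 1979 and 2341 in Rx-Dicer, a log2 fold change of -0.16 ± 0.12 (SE, adjusted p = 0.694). One Rx-Dicer library, the third, stood above control 1. Gins3, Cdc45 and Gins1 gave -0.17, -0.14 and -0.13 with standard errors of 0.13 to 0.14. The share of all genes tested that lay below 0 was 50.1%, and 6 genes measured in the same libraries are not independent observations. The group's libraries were highest in control 2 and control 3, 0.17 and 0.13 above their mean on the log2 scale, and control 1 was 0.09 below it. Between Gins2 and the other GINS subunits the ratios per kilobase overlapped between genotypes.

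Rfc2, a small subunit of the clamp loader RFC (chr5:134581366-134601805), was the gene with the largest difference. It had 4987, 5805 and 5527 normalised counts in control and 4740.2, 4469.6 and 4219.9 in Rx-Dicer. All 3 Rx-Dicer values lay below the lowest control, and Rfc2 was the only one of the 40 genes whose genotypes did not overlap. Values of Rx-Dicer all below control were found for 10.7% of all genes tested and all above for 8.55%, against 1 and 0 of the 40. Its means were 5439.9 ± 416 and 4477 ± 260.2 normalised counts (SD, n = 3), and its log2 fold change was -0.28 ± 0.12 (SE, adjusted p = 0.211), with an edgeR adjusted p of 0.253. Over the 22 alternatives the fold change stayed between -0.34 and -0.19, with adjusted p of 0.0585 at the lowest, without control 1. Without control 2 the DESeq2 adjusted p was 0.591. The unadjusted DESeq2 p of Rfc2 was not under 0.05 without control 2, without Rx-Dicer 3 or without the 2 erythroid-high libraries. The genotypes also kept apart for Rfc2 with TMM or total-count size factors, in either file alone and under the length and GC correction. Groups already apart stay apart when libraries are left out, so the fits without libraries are no further check of this. The other settings reuse the same libraries, so they are no independent check either.

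In the other clamp loader subunits the genotypes overlapped. Rfc4, also a small subunit, had 3405, 3891 and 3758 normalised counts in control and 3145, 3062 and 3682 in Rx-Dicer, a log2 fold change of -0.16 ± 0.13 (SE, adjusted p = 0.7). Rfc5 lay at -0.13, Rfc3 at 0.02 and Rfc1, the large subunit, at 0.09. Set against Rfc1 within each library, per kilobase, Rfc2 stood at 0.78, 0.767 and 0.772 in control and 0.676, 0.59 and 0.529 in Rx-Dicer. The ratio was thus nearly the same in the 3 controls, which differed in the level of both genes, and lower in each Rx-Dicer library. The ratio of Rfc2 to Rfc3 was also apart, with 0.965 to 1.02 in control and 0.679 to 0.931 in Rx-Dicer, whereas those to Rfc4 and Rfc5 overlapped. These ratios were chosen after the values had been seen and are given with no test. Pcna, which RFC loads, had 21127, 25818 and 22355 normalised counts in control and 21513, 20492 and 25229 in Rx-Dicer, a log2 fold change of -0.04 ± 0.13 (SE, adjusted p = 0.964). Its genotypes overlapped over nearly their whole range.

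**Figure D4:**
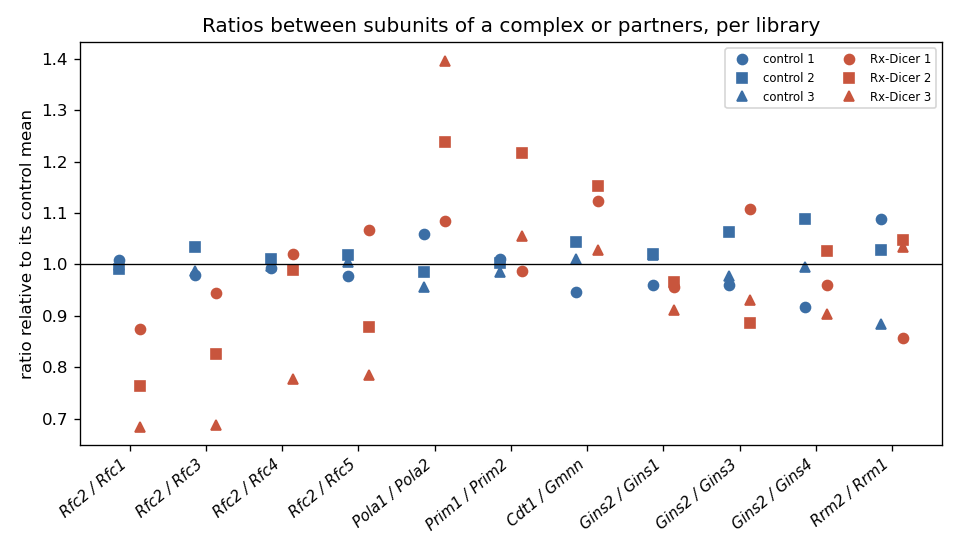
For 11 pairs of subunits or partners, the y axis gives the ratio of their normalised counts per kilobase in each library relative to the mean of the controls, with controls in blue and Rx-Dicer in red. Red lies wholly below blue for Rfc2 over Rfc1 and over Rfc3 and wholly above it for Pola1 over Pola2, and the other 8 pairs overlap. Both Rfc2 ratios share a gene whose own genotypes did not overlap, and no share over other gene pairs is given.

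Among polymerases and primase, 3 genes lay above 0 and 3 below, with a median log2 fold change of -0.04. Pola1, the catalytic subunit of polymerase alpha, had 3369, 4053 and 3807 normalised counts in control and 3763, 4292 and 4692 in Rx-Dicer. Its log2 fold change was 0.18 ± 0.13 (SE, adjusted p = 0.657), and Rx-Dicer 1 lay between the control values. It was 0.01 under the length and GC correction and 0.04 with the neuron covariate. Pola2, the accessory subunit of the same enzyme, lay at -0.13 ± 0.13. The ratio of Pola1 to Pola2 per kilobase was 1.06, 0.988 and 0.958 in control and 1.09, 1.24 and 1.40 in Rx-Dicer, so the libraries did not overlap. This pair too was picked from the values. Pold1, the catalytic subunit of polymerase delta, had 5944, 8399 and 7834 normalised counts in control and 6745, 6456 and 6547 in Rx-Dicer, a log2 fold change of -0.17 ± 0.15 (SE, adjusted p = 0.75). Control 1 was lower than each Rx-Dicer library and the other controls higher. Pole, the catalytic subunit of polymerase epsilon, lay at 0.04, and the primase subunits Prim1 and Prim2 at 0.01 and -0.10.

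The 4 genes of single-strand binding and lagging strand joining were all below 0, with a median log2 fold change of -0.06. Fen1, the nuclease that trims Okazaki fragments, had 6042, 7269.9 and 6419.8 normalised counts in control and 5914, 5426 and 6682 in Rx-Dicer. It gave a log2 fold change of -0.13 ± 0.13 (SE, adjusted p = 0.803). Lig1, the ligase that seals them, had 10054, 12393 and 11450.2 normalised counts in control and 9674, 11196 and 11222 in Rx-Dicer. It gave a log2 fold change of -0.08 ± 0.13 (SE, adjusted p = 0.909). For both genes the genotypes overlapped. Rpa1 and Rpa2, subunits of the protein that coats single-stranded DNA, lay at -0.04 and -0.02.

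The 3 genes of nucleotide supply were below 0 as well, with a median log2 fold change of -0.06. Tyms, which makes dTMP, had 5147, 6056 and 5435 normalised counts in control and 5169, 4682 and 5652 in Rx-Dicer, a log2 fold change of -0.10 ± 0.13 (SE, adjusted p = 0.864). Rrm2 had 19338, 22372 and 18558 normalised counts in control and 15641, 20874 and 21304 in Rx-Dicer. Its log2 fold change was -0.06 ± 0.15 (SE, adjusted p = 0.955), with Rx-Dicer 1 the lowest library and the other Rx-Dicer libraries inside the control range. Rrm1, the large subunit of ribonucleotide reductase, lay at -0.04, and the ratio of Rrm2 to Rrm1 overlapped between genotypes.

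As Dicer makes miRNAs, the annotated 3′ UTRs of the 40 genes were searched for words that pair with seeds of miRNAs of the embryonic brain. The 8-base let-7 word CTACCTCA stood in 1 of the 40, Rrm2, or 2.5%, against 4.04% of 14061 tested genes with a 3′ UTR, and a 7-base let-7 word in 3 (Gins1, Orc4 and Rrm2), or 7.5%, against 18.3%. The miR-9 word ACCAAAGA stood in Gins2 and Prim1, or 5%, against 5.06% of tested genes. The word GCACTTTA of the miR-17 family stood in Mcm3, or 2.5%, against 4.74%, and GTGCAATA of miR-25 in none, against 3.03%. The paper reports that most of the miRNAs reduced in Rx-Dicer at E11.5 belonged to the let-7 family. The longest 3′ UTR of these genes had a median of 625.5 bases, against 1216 over the tested genes, and fewer words are found in shorter sequence. The sites are printed 5′ to 3′ on the strand of the gene with the word in capitals. They lie at chr12:24713362-24713369 for Rrm2, chr1:20803165-20803172 for Mcm3, chr8:120579415-120579422 for Gins2 and chr10:128029938-128029945 for Prim1.
Rrm2: ctgtgtagCTACCTCAgtcctgtt
Mcm3: acccccagGCACTTTAgtccagga
Gins2: acaaaaaaACCAAAGAaaaccccc
Prim1: tttgtgagACCAAAGAgggtgtca
The mature miRNAs of RefSeq that carry these seeds (bases 2 to 8, in capitals) are shown for comparison with the sites. In the 4 genes with an 8-base word the log2 fold changes were -0.06 (Rrm2), -0.00070 (Mcm3), -0.22 (Gins2) and 0.01 (Prim1), none of them called.
let-7a-5p: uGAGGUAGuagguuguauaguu
let-7g-5p: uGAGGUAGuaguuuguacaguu
miR-9-5p: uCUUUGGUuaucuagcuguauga
miR-93-5p: cAAAGUGCuguucgugcagguag
miR-106b-5p: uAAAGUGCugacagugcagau
miR-25-3p: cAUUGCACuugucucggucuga

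Mcm7 is also a host gene, since Mir106b, Mir93 and Mir25 lie within it on the same strand, with their printed arms between positions 138165332 and 138165807 of chromosome 5. miR-106b and miR-93 share the seed that pairs with the word in Mcm3, and miR-25 has another. Annotated exons of Mcm7 share 88 bases with Mir93 and 84 with Mir25, which is 1.99% and 1.90% of its exon length, and reads there were not counted for either gene. The count of Mcm7 therefore covers the rest of its exons and says nothing of the miRNAs, whose mature levels were not measured in these libraries.

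Other genes of the pathway and of the cell cycle were taken from 4 further lists. Of 47 other replication genes, 1 was called, a share near the 2.93% of all genes tested, and their median log2 fold change was -0.05. This was Rnaseh2c, a subunit of the RNase H2 that removes RNA from DNA, with 3172, 3990.4 and 3718 normalised counts in control and 2871, 2315 and 2625 in Rx-Dicer. It was called lower, at -0.48 ± 0.14 (SE, adjusted p = 0.0315). Dctpp1, which clears unwanted dCTP, had 3995, 5169.8 and 4118 normalised counts in control and 3918, 2287 and 3298 in Rx-Dicer, a log2 fold change of -0.48 ± 0.19 (SE, adjusted p = 0.174). In neither gene did the genotypes overlap, with Rx-Dicer all below control as in 10.7% of all genes tested.

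None of 20 regulators of the step from G1 to S was called, and 14 of them lay above 0 with a median log2 fold change of 0.08. E2f7, an E2F factor that represses E2F targets, had 2425, 2634 and 2510.0 normalised counts in control and 2811, 3503 and 3266 in Rx-Dicer. It gave a log2 fold change of 0.34 ± 0.13 (SE, adjusted p = 0.141). Ccne2, a cyclin that drives entry into S phase, had 1618, 1930.0 and 1655 normalised counts in control and 1857, 2448 and 2684 in Rx-Dicer. It gave a log2 fold change of 0.43 ± 0.16 (SE, adjusted p = 0.149). E2f7 was higher in each Rx-Dicer library than in any control, as in 8.55% of all genes tested, while for Ccne2 control 2 lay above Rx-Dicer 1.

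Of 22 genes of G2 and mitosis, 17 lay below 0 with a median of -0.08, and 1 was called. This was Kif23, a kinesin of the midbody in cell division, with 3959.9, 4259 and 4430.1 normalised counts in control and 4902, 5802 and 5999 in Rx-Dicer. It was called higher, at 0.40 ± 0.13 (SE, adjusted p = 0.0485). Birc5, a subunit of the mitotic passenger complex, had 4693, 4941 and 4977 normalised counts in control and 3808, 4198 and 4452 in Rx-Dicer, a log2 fold change of -0.23 ± 0.11 (SE, adjusted p = 0.358). Of 10 checkpoint genes none was called, and their median was 0.12. The kinase Wee1, which holds cells out of mitosis, had 3119.6, 3315 and 3083 normalised counts in control and 3411, 3879 and 4190.4 in Rx-Dicer, a log2 fold change of 0.27 ± 0.12 (SE, adjusted p = 0.289). Rad17, which loads the checkpoint clamp, had 1060.2, 1003 and 984 normalised counts in control and 1093, 1087 and 1302 in Rx-Dicer, a log2 fold change of 0.19 ± 0.14 (SE, adjusted p = 0.63). For Kif23, Wee1 and Rad17 each Rx-Dicer value lay above every control, as in 8.55% of all genes tested. For Birc5 each lay below every control, as in 10.7%. The calls of Rnaseh2c and Kif23 were lost in the edgeR test, which called 8 genes in all, and under the replicate block, while over the 22 alternatives their log2 fold changes stayed at -0.57 to -0.38 and 0.28 to 0.48.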

How the data were processed

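RNA-seq of E11.5 rostral telencephalon, 3 control and 3 Rx-Dicer samples, was analysed from the deposited files, which hold raw counts of reads for each gene. Per the methods and the submitters' processing notes, the authors trimmed reads with Trim Galore 0.6.5, aligned them to GRCm38.p6 with HISAT2 and counted them per Ensembl gene with HTSeq 0.12.4 in union mode, reverse stranded. Reads in more than 1 gene or place, outside genes, of low alignment quality or unaligned were tallied apart. All these tally rows, 24.9 to 31.0% of reads together, were left out. Libraries were directional and read as pairs of 100 bp.

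Each sample had 2 files. Chi-square per degree of freedom was 1.13 to 1.52 between the files of a sample and 22.5 to 32.6 between samples of a group, so they were treated as repeat runs and summed (n = 3 per genotype). Genotypes were compared on all genes with the DESeq2 1.42.0 Wald test in R 4.3.3, the study's tool, with Benjamini-Hochberg adjustment, independent filtering, and calls needed an adjusted p under 0.05 with a log2 fold change beyond 0.32. Intervals are 95% Wald intervals. edgeR 4.0.16, on genes that reached 10 counts in 3 or more samples, was an alternative. On simulated data of 30928 genes with 200 changed 2-fold, the median share recovered for this comparison was 85% with DESeq2 (21.1% of its calls were wrong) and 73.5% with edgeR (8.12% wrong).

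The 40 genes, their 8 role lists, the 4 comparison lists and the 8 marker lists were chosen with earlier results of these data known. Genes given by sample were Dicer1, genes called, genes whose genotypes did not overlap, the 2 of each role list with the smallest p, the 3 highest and 3 lowest per kilobase, and the gene with an 8-base let-7 site. Of comparison lists, called genes and the 2 with the smallest p were named. Exon lengths and 3′ UTRs came from GENCODE M21, promoters and miRNAs from RefSeq. Protein sequences and small RNA libraries were not used here. Samples with the same number are different animals. The paper compared mutants with control littermates, but the sample titles name no litter. Deviations from the group means correlated at 0.17, 0.03 and -0.13 for samples of the same number. For samples of different number the range was -0.17 to 0.16, so the numbers were not taken as pairs. Depth limits no value here, since the lowest count of any of the 40 genes in a library was 515. The smallest share a library could show (3 counts) was 0.0620 to 0.0870 CPM, covering counting error only. Exons of Orc5 and Rpa1 share 90 and 44 bases with other genes of the same strand, where reads were not counted. Exons on the opposite strand, such as those of Gse1 over 67.3% of the exon length of Gins2 and of Lat2 over 15.1% of that of Rfc2, do not share reads under stranded counting.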

Additional observations from a re-analysis of the deposited data

How the results depend on the processing

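No alternative called a replication gene. Their median log2 fold change ranged from -0.16 (new neuron markers as covariate) to 0.03, and over the fits without 1 library from -0.12 to 0.03. Genes whose genotypes did not overlap numbered 2 with total-count size factors or the second file alone. Without the 2 libraries highest in erythroid markers they numbered 9 (8 lower and 1 higher in Rx-Dicer), and without 1 library 1 to 16. The 16 were found without control 1 (15 lower, 1 higher), while without Rx-Dicer 1 there were 1 lower and 5 higher. Fewer libraries make an overlap less likely. The share over all genes tested is not given for these settings, so these counts are not read as a result. The 2 marker covariates and the fit without the 2 erythroid-high libraries were chosen after seeing the data.

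Genes called in all numbered 8 in edgeR (8 higher, 0 lower), 322 without independent filtering (108 lower), 314 with the replicate block (87 lower), 295 with the replicate block and the length and GC correction (181 higher, 114 lower), 123 without the erythroid-high libraries (74 higher, 49 lower), and 285 to 637 without 1 library (172 to 429 higher, 84 to 371 lower). At an adjusted p under 0.1, 308 were lower, and with the neuron covariate 65. The block changed no call among the 40 genes.

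The 1 call among other replication genes became 0 in edgeR, without independent filtering, under the replicate block, the length and GC correction or both, without the erythroid-high libraries and with the neuron covariate. That of G2 and mitosis genes became 0 in the same 7 alternatives and in the first file alone. Without 1 library these lists had 0 to 2 and 0 to 1, G1 to S regulators 0 to 3 and checkpoint genes 0 to 1.

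Signs turned for Orc4 (-0.061), Orc5 (-0.093) and Orc1 (-0.024) under the length and GC correction, and with the block as well (-0.064, -0.10 and -0.0076), for Mcm5 (0.031) and Mcm2 (0.036) without the erythroid-high libraries, and for Mcm7 (-0.085) and Orc1 (-0.079) with the neuron covariate. Without 1 library, Rrm2 ranged from -0.14 to 0.068, Cdc6 from -0.11 to 0.094, Mcm5 from -0.23 to 0.044, Mcm2 from -0.21 to 0.066, Pcna from -0.14 to 0.044, Mcm7 from -0.068 to 0.11 and Orc1 from -0.066 to 0.15. The sign held but the size moved for Pold1 (-0.30 to -0.066), Gmnn (-0.22 to -0.022), Fen1 (-0.21 to -0.053), Lig1 (-0.16 to -0.0070), Tyms (-0.17 to -0.031), Orc2 (0.052 to 0.25), Orc5 (0.026 to 0.15), Gins4 (-0.22 to -0.092), Gins2 (-0.31 to -0.15), Rfc4 (-0.25 to -0.11) and Pola1 (0.10 to 0.26), none of them called. For these shifts the cause was not tested.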
